A study of Mus musculus with 30 samples.

Results

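Interferon-stimulated genes (ISGs) are genes that cells switch on when an interferon binds its receptor. A list of 47 of them was followed in the livers of 30 male mice of about 8 weeks of age. Each gene was read from its brightest probe set that carries no other gene symbol, with brightness taken as the mean over the 30 arrays. Of the 47 genes, 43 had such a probe set, of 18820 genes measured in the same way. Igtp, Parp9 and Dtx3l lie only on probe sets shared with another gene and Ifi44 matched none, so these 4 are not in the counts. Livers came from wild-type (WT) mice, from mice that lacked PPARα (PPARα-/-) or CREB3L3 (CREB3L3-/-) in the whole body, and from PPARα/CREB3L3-/- mice bred by crossing these lines. All were on a C57BL/6 background, and each genotype was killed after a 16 h fast or, without fasting, after 4 days on a ketogenic diet. There were 4 livers a group, and 3 in both PPARα-/- groups. PPARα is a nuclear receptor that drives fatty acid oxidation, and CREB3L3 is a transcription factor of liver and gut that is released from the endoplasmic reticulum in fasting. The genotypes were kept as separate mouse lines, so a difference between lines and the deletion itself cannot be told apart, and livers of chow-fed mice were not analysed here.

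The labels were checked on the deleted genes. Creb3l3 was at a log2 level of 11.10 ± 0.14 (SD) in fasted WT and 10.45 ± 0.02 in ketogenic WT livers, and its mean was between 4.37 and 4.90 in the 4 groups without CREB3L3. Ppara fell less far, from 10.24 ± 0.14 to 9.19 ± 0.21 in fasted PPARα-/- and from 10.49 ± 0.08 to 7.62 ± 0.37 in ketogenic PPARα-/- livers. The Ppara probe set also read 8.64 ± 0.44 in ketogenic CREB3L3-/- livers, whose gene is intact, so it is a weaker check of the labels.

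Type I and III interferons signal through paired receptors and the kinases JAK1 and TYK2. They assemble ISGF3, a complex that contains STAT2 and IRF9 and binds the interferon-stimulated response element in the promoters of its targets. Among these is IRF7, which feeds forward on interferon production. Type II interferon acts through another promoter sequence, the GAS element. The products sense foreign nucleic acids, attach the ubiquitin-like protein ISG15, bind viral RNA, remodel membranes around pathogens or deplete nucleotides, and in liver both hepatocytes and resident immune cells make them.

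ISGF3 is known to act through promoter DNA, and the promoters of 7 members are shown because they hold the core of its element and their genes are among those described here. They are RefSeq stretches of build GRCm38.p6, printed 5′ to 3′ on the strand of the gene, and capitals mark the core of the response element on either strand: GAAA, any 2 bases, then GAAA, or its reverse complement. The stretches are Isg15 (chr4:156200835-156200936, minus strand), Ifit1 (chr19:34640745-34640853, plus strand), Ifit3 (chr19:34583333-34583456, plus strand), Bst2 (chr8:71537547-71537642, minus strand), Gbp2 (chr3:142620564-142620653, plus strand), Gbp3 (chr3:142559959-142560043, plus strand) and Irgm1 (chr11:48871421-48871490, minus strand).
Isg15: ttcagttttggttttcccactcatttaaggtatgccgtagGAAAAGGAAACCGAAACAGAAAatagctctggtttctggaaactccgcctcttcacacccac
Ifit1: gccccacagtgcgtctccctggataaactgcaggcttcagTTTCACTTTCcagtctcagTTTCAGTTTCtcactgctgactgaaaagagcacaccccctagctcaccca
Ifit3: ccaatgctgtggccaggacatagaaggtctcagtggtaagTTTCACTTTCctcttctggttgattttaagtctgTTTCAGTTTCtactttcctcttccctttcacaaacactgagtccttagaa
Bst2: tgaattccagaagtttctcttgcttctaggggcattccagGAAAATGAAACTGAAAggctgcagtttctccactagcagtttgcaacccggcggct
Gbp2: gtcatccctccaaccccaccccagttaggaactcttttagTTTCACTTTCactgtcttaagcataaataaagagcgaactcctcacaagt
Gbp3: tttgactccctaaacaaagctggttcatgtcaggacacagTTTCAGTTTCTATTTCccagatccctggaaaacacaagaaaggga
Irgm1: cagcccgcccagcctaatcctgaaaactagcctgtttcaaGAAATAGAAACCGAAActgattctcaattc
All 7 lie upstream of the start site and outside the transcript. Isg15 has 3 overlapping copies, and 2 overlapping copies each were found in Bst2, Gbp3 and Irgm1. In Ifit1 and Ifit3 the 2 copies were apart. The core was looked for in the 250 bases before and 50 after each start site of 33 measured members that have an entry, and 17 of them (51.5%) held it, against 1079 of 27025 genes (3.99%). A GAS core (TTC, any 3 bases, then GAA) was in 7 of the 33 members (21.2%) and in 9.55% of all genes, and 5 members held both. A match is a string of letters and not a measured binding site.

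**Figure D1:**
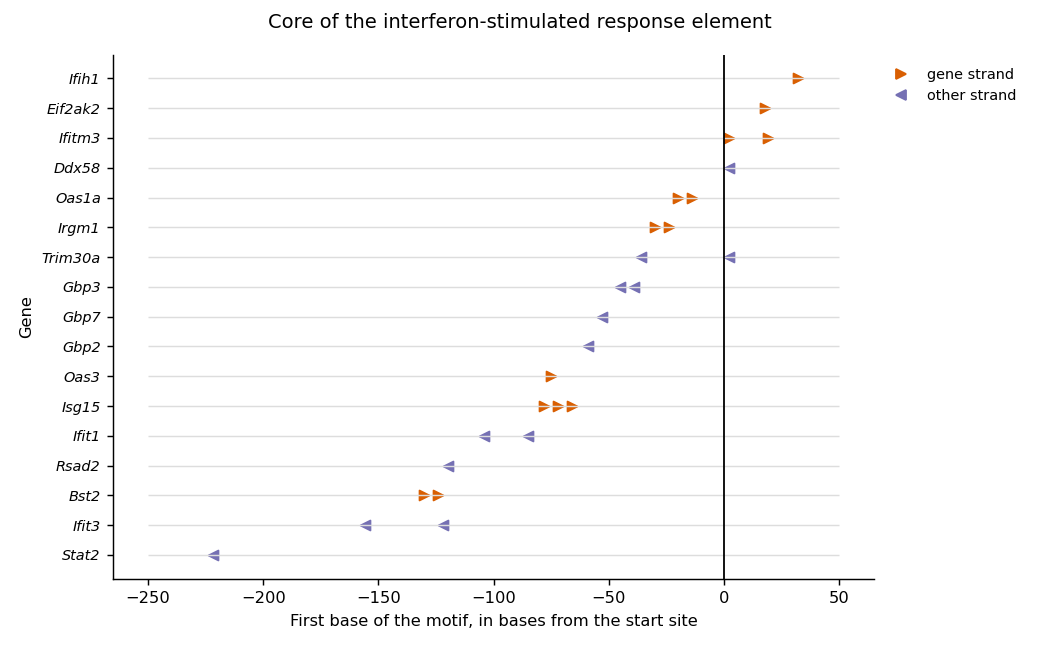
Position of the response element core in the promoters of the 17 measured members that hold it. The x axis gives the first base of each match in bases from the start site (the line at 0), and triangles point along the strand that reads GAAA. In 13 of the 17 genes at least 1 match lies before the start site.

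Across the 8 groups the levels of a member ranged widely. The difference between the highest and the lowest group mean had a median of 2.29 log2 units over the 43 members, from 0.77 for Trim25 to 4.73 for Ifit1, and it passed 3 units in 11 members. Fasted PPARα/CREB3L3-/- livers were the highest group for 40 of the 43 members. The lowest group was ketogenic PPARα/CREB3L3-/- for 24 members and ketogenic PPARα-/- for 16. The double knockout was thus most often the highest group after fasting and most often the lowest on the ketogenic diet. A gene was called where limma gave P below 0.001 and the fold difference was above 1.2, and differences are printed on the log2 scale with their standard error and with p adjusted over all 35556 probe sets. The median difference over all genes ran from -0.055 to 0.053 over the 16 comparisons, and this is the reference for the medians over members that follow.

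**Figure D2:**
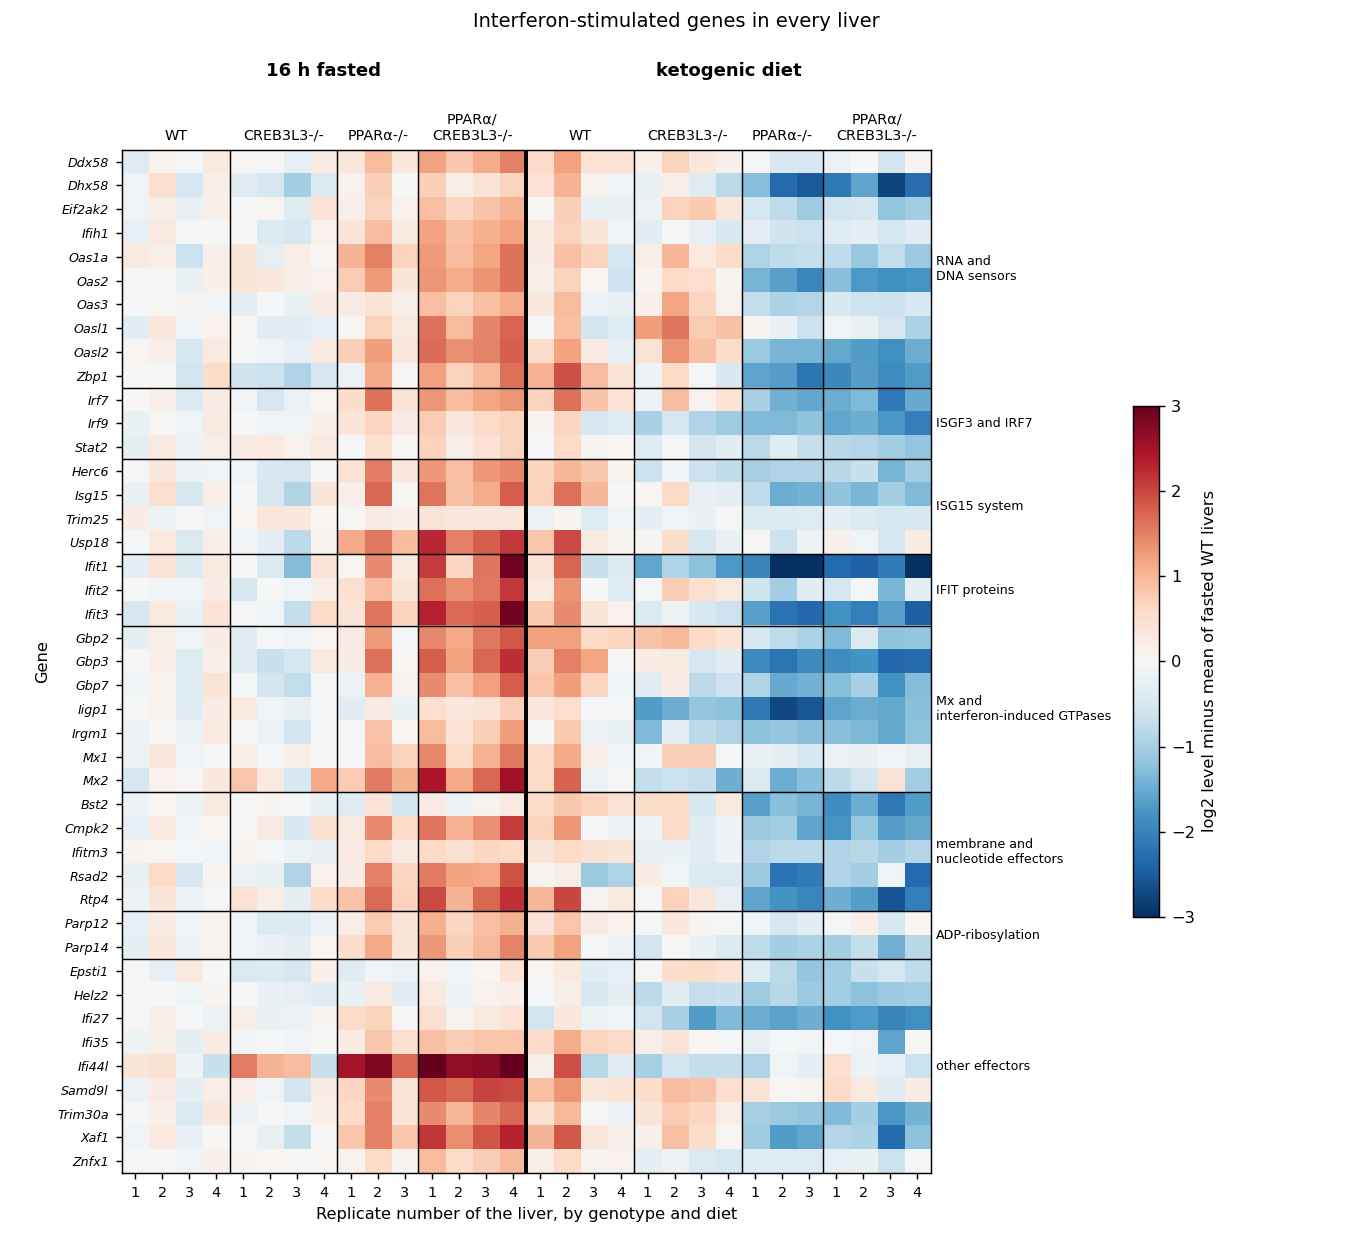
Level of each of the 43 members (rows, grouped by role) in each of the 30 livers (columns), as the log2 level minus the mean of the 4 fasted WT livers. Colours are cut off at 3 units, and the fasted PPARα/CREB3L3-/- block is red for most genes while both ketogenic groups without PPARα are blue for most genes.

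Single livers stood apart in the same direction for nearly every member. Taking the median over the members of each liver's deviation from the fasted WT mean, PPARα-/- replicate 2 stood at 1.04 among fasted livers, against 0.25 and 0.30 in the other two, and it was the highest liver of its group for 43 of 43 members. WT replicate 2 on the ketogenic diet stood at 1.05, against 0.43, 0.10 and -0.11, and was the highest of its group for 42 members. The 4 fasted PPARα/CREB3L3-/- livers lay at 0.87 to 1.59, the 3 ketogenic PPARα-/- livers at -1.16 to -0.91 and the 4 ketogenic PPARα/CREB3L3-/- livers at -1.37 to -0.96, and WT livers at -0.15 to 0.18 after fasting and -0.11 to 1.05 on the ketogenic diet. None of these 3 knockout groups overlapped WT of its diet on this measure. The median over all genes stayed between -0.07 and 0.04 in every liver. Results are given with both of these livers, and without them where that moves a count by over 1.5 times.

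**Figure D3:**
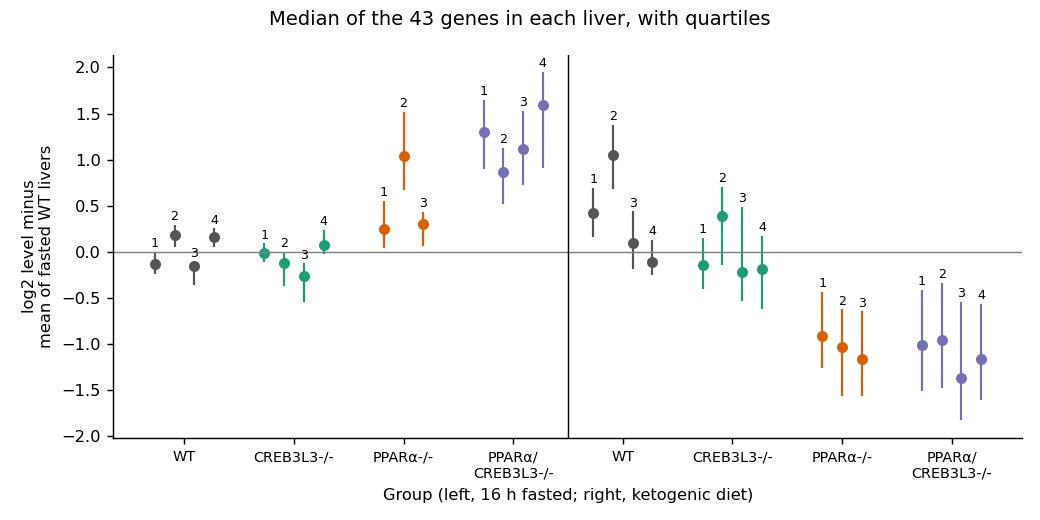
Median over the 43 members of the log2 level minus the fasted WT mean in each liver (points, numbered by replicate), with the quartiles over the members (bars). Fasted PPARα-/- replicate 2 (1.04) and ketogenic WT replicate 2 (1.05) stand above the other livers of their groups.

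After fasting, 4 members were higher without PPARα, none was called without CREB3L3, and most were higher without both. In fasted PPARα-/- livers 4 of the 43 members were higher than in WT and 0 lower, where 3.11% of all genes were called higher, and the median difference was 0.53. The 4 were Ifi44l (2.32 ± 0.49, adjusted p = 0.00417), Ifitm3 (0.36 ± 0.08, adjusted p = 0.00592), Oas1a (1.07 ± 0.27, adjusted p = 0.0165) and Usp18 (1.23 ± 0.33, adjusted p = 0.0224), and 22 members had an unadjusted p below 0.05, all of them higher. Without PPARα-/- replicate 2 the count fell to 0 by limma. In fasted CREB3L3-/- livers 0 of 43 members were called by limma, where 1.54% of all genes were called in either direction. Here 2 members had an unadjusted p below 0.05, the count with the study's intensity-based test was also 0, and the median difference was -0.07. The estimates farthest from 0 were 0.70 for Ifi44l, -0.66 for Zbp1 and -0.58 for Dhx58.

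In fasted PPARα/CREB3L3-/- livers 32 of 43 members were higher than in WT and 0 lower, where 5.81% of all genes were called higher, with a median difference of 1.19. The lowest p values belonged to Samd9l (1.90 ± 0.23), a cytosolic antiviral protein, Ifitm3 (0.56 ± 0.07), Ifit3 (2.17 ± 0.31), Ifih1 (1.09 ± 0.16), Ifi44l (3.08 ± 0.46), Oasl2 (1.58 ± 0.24), Znfx1 (0.81 ± 0.13) and Gbp2 (1.51 ± 0.24), with adjusted p from 1.8e-06 to 6.37e-05. The 11 members not called were Bst2, Dhx58, Epsti1, Helz2, Ifi27, Ifi35, Ifit1, Iigp1, Irf9, Stat2 and Trim25. When livers without CREB3L3 were the reference, loss of PPARα raised 34 members (4.22% of all genes were called higher), with a median of 1.28. The 8 of lowest p were Ifitm3 (0.66 ± 0.07), Samd9l (1.96 ± 0.23), Ifih1 (1.28 ± 0.16), Parp12 (1.19 ± 0.15), Usp18 (2.19 ± 0.30), Ifit3 (2.25 ± 0.31), Gbp2 (1.63 ± 0.24) and Herc6 (1.51 ± 0.22). In the same comparison 1 of 10 Kupffer cell and macrophage markers was called higher and 0 lower, with a median of 0.43. The mean of these markers was 8.13 to 8.58 in the double knockout and 7.69 to 8.00 in CREB3L3-/- livers. Their part in the result was not tested. When livers without PPARα were the reference, loss of CREB3L3 raised 5 members (1.19% of all genes were called higher), with a median of 0.58. They were Samd9l (1.10 ± 0.25), Znfx1 (0.55 ± 0.14), Gbp2 (1.02 ± 0.25), Oasl1 (1.11 ± 0.28) and Ifit3 (1.28 ± 0.34). That count rose to 12 without PPARα-/- replicate 2 and fell to 0 without replicate 1 or replicate 3 of that group.

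The group mean of the fasted double knockout was above both single knockouts for 42 of 43 members, and for 36 members the means ran from WT and CREB3L3-/- through PPARα-/- to PPARα/CREB3L3-/-. The shares of all genes with these orders were not determined. The members are not separate observations here, since PPARα-/- replicate 2 was the highest liver of its group for all 43. Whether the 2 deletions together moved a member by more than their separate effects added up was tested as an interaction. It called 0 of 43 members by limma and 0 by the intensity-based test, where 0.834% of all genes were called in either direction, although 22 members had an unadjusted p below 0.05 and the median was 0.63. The estimates of largest size were 1.54 ± 0.72 for Ifit1, 1.48 ± 0.44 for Zbp1 and 1.40 ± 0.46 for Gbp3. Leaving out PPARα-/- replicate 2 and ketogenic WT replicate 2 gave 12 called members, all higher, and leaving out the first alone gave 9, so a single liver decided this count.

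On the ketogenic diet the members moved the other way. In PPARα-/- livers 31 of 43 were lower than in WT and 0 higher, where 7.15% of all genes were called lower, and the median difference was -1.35. Those of lowest p were Ifitm3 (-1.27 ± 0.08), Iigp1 (-2.66 ± 0.17), Bst2 (-2.03 ± 0.21), Zbp1 (-2.87 ± 0.32), Gbp3 (-2.87 ± 0.34), Ifit3 (-2.75 ± 0.34), Irf7 (-2.23 ± 0.29) and Dhx58 (-2.41 ± 0.32), with adjusted p from 1.26e-11 to 2.08e-06. In PPARα/CREB3L3-/- livers 32 were lower and 0 higher, where 10.3% of all genes were called lower, with a median of -1.44. Here the lowest p values were those of Ifitm3 (-1.35 ± 0.07), Bst2 (-2.41 ± 0.19), Iigp1 (-1.65 ± 0.16), Zbp1 (-2.87 ± 0.30), Irf7 (-2.53 ± 0.26), Ifi27 (-1.70 ± 0.18), Gbp3 (-2.94 ± 0.31) and Irf9 (-1.68 ± 0.18). Both comparisons use the same WT livers, and 29 members were lower in each. Mx1, Mx2, Rsad2, Ifit2, Ifi44l, Samd9l, Oasl1, Usp18 and Trim25 were called in neither. The counts were 29 and 29 without ketogenic WT replicate 2 and fasted PPARα-/- replicate 2. These are whole livers, in which fewer cells of a type and less RNA per cell cannot be told apart, and macrophage markers were lower in the same 2 groups, as given with the marker lists.

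**Figure D4:**
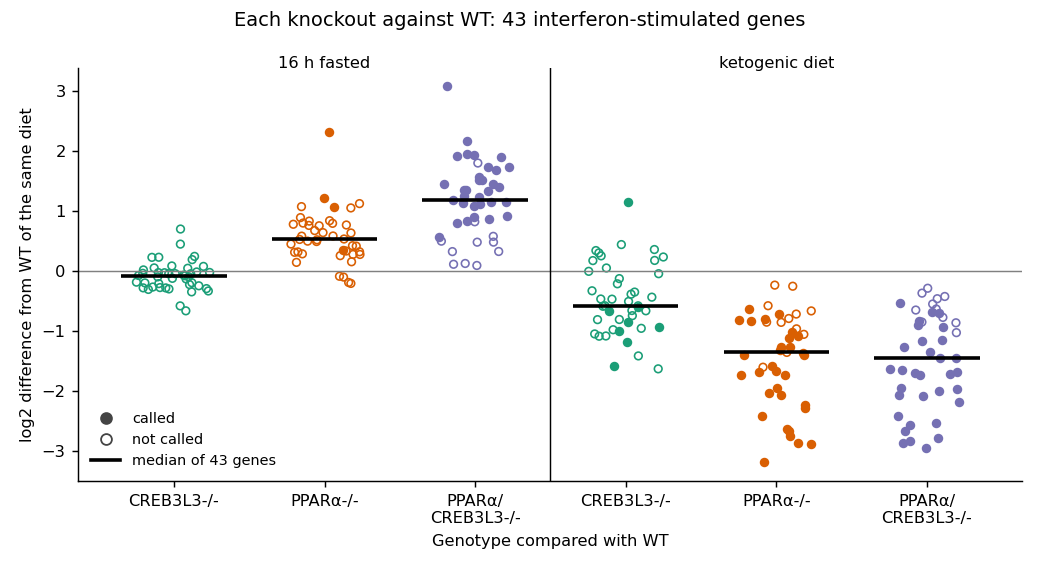
Log2 difference of each of the 43 members from WT of the same diet (points, filled where called) for the 3 knockouts after fasting and on the ketogenic diet, with the median over members (lines). The fasted PPARα/CREB3L3-/- points lie above 0 (median 1.19), and both ketogenic groups without PPARα lie below 0 (medians -1.35 and -1.44).

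In ketogenic CREB3L3-/- livers the group mean of 30 of 43 members was between WT and both groups without PPARα. The share of all genes with this order was not determined. By the median over the members in each liver, ketogenic CREB3L3-/- livers stood at -0.22 to 0.39. These values overlapped those of ketogenic WT livers, at -0.11 to 1.05. The Ppara gene of CREB3L3-/- mice is intact, and its log2 level in their ketogenic livers was 8.64 ± 0.44, against 10.49 ± 0.08 in WT. All 7 recruited monocyte markers were higher in the same livers. The part of either in the member levels was not tested. Lower than WT were 7 members (11.9% of all genes were called lower) and higher was 1 (16.7% of all genes were called higher), with a median of -0.58. That median was -0.35 without ketogenic WT replicate 2 and fasted PPARα-/- replicate 2. The share of members called lower was near that of all genes and is read as no result about the members as a set. The 7 were Iigp1 (-1.57 ± 0.16, adjusted p = 6.9e-09), Ifitm3 (-0.67 ± 0.07, adjusted p = 3.79e-08), Ifi27 (-1.0 ± 0.18, adjusted p = 5.89e-05), Herc6 (-1.19 ± 0.22, adjusted p = 0.000102), Znfx1 (-0.60 ± 0.13, adjusted p = 0.000399), Irf9 (-0.84 ± 0.18, adjusted p = 0.000489) and Irgm1 (-0.93 ± 0.22, adjusted p = 0.00154). The member that was higher was Oasl1 (1.15 ± 0.26, adjusted p = 0.000883), an oligoadenylate synthetase relative without synthetase activity. The medians of the roles ran from 0.21 for the 10 sensors to -0.95 for the 7 GTPases and -1.08 for the 3 IFIT genes. Adding the loss of PPARα to that of CREB3L3 lowered 22 members (17.2% of all genes were called lower), with a median of -0.91. Bst2 (-2.03 ± 0.19), Oasl2 (-2.44 ± 0.24), Ifitm3 (-0.68 ± 0.07), Oas2 (-1.96 ± 0.21), Trim30a (-1.87 ± 0.23), Gbp2 (-1.74 ± 0.24), Irf7 (-1.95 ± 0.26) and Dhx58 (-1.90 ± 0.29) led that set. In the same comparison 9 of 10 Kupffer cell and macrophage, 6 of 7 monocyte, 7 of 8 endothelial, 6 of 8 stellate cell and 3 of 7 dendritic cell markers were lower, and their part in the result was not tested.

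In contrast, the loss of CREB3L3 in ketogenic livers that already lacked PPARα moved the members little. The median difference was -0.04, and Iigp1 alone was called, at 1.02 ± 0.17, adjusted p = 0.0014 (1.07% of all genes were called higher). The interaction on the ketogenic diet was called for 3 members, Iigp1 (2.59 ± 0.23), Ifitm3 (0.58 ± 0.11) and Znfx1 by its brighter probe set (0.69 ± 0.18), all higher, where 8.2% of all genes were called higher, a share near that of the members. For these 3 the loss of both genes lowered the level by less than the sum of the single losses.

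Of the 3 ISGs measured that code for transcription factors, 1 was higher in the fasted double knockout (5.81% of all genes). All 3 were lower in ketogenic PPARα-/- (7.15% of all genes) and PPARα/CREB3L3-/- livers (10.3% of all genes). Irf7 codes for the factor that amplifies the type I response. Its log2 level after fasting was 8.30, 8.43, 7.87 and 8.53 in WT, 8.18, 7.79, 8.10 and 8.34 in CREB3L3-/-, 8.80, 9.90 and 8.68 in PPARα-/-, and 9.61, 9.22, 9.47 and 9.61 in PPARα/CREB3L3-/- livers. In ketogenic livers it was 8.98, 9.93, 9.13 and 8.71 in WT, 8.13, 9.21, 8.42 and 8.69 in CREB3L3-/-, 7.31, 6.85 and 6.71 in PPARα-/-, and 6.78, 6.97, 6.13 and 6.77 in PPARα/CREB3L3-/- livers. The 4 fasted double knockouts were above every fasted WT liver, one PPARα-/- liver exceeded them all, and the 7 ketogenic livers without PPARα were all below the 8 others of that diet. The difference from WT was 1.19 ± 0.26 (adjusted p = 0.00294) in the fasted and -2.53 ± 0.26 (adjusted p = 3.38e-08) in the ketogenic double knockout.

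Irf9 codes for the DNA-binding subunit of ISGF3. After fasting its level was 7.73, 7.95, 7.79 and 8.19 in WT, 7.92, 7.81, 7.77 and 8.07 in CREB3L3-/-, 8.28, 8.56 and 8.16 in PPARα-/-, and 8.67, 8.26, 8.49 and 8.57 in PPARα/CREB3L3-/- livers. The ketogenic level was 8.03, 8.55, 7.40 and 7.55 in WT, 6.93, 7.38, 7.02 and 6.84 in CREB3L3-/-, 6.59, 6.58 and 6.70 in PPARα-/-, and 6.36, 6.44, 6.16 and 5.86 in PPARα/CREB3L3-/- livers. The 4 fasted double knockouts lay above all fasted WT livers, but the difference of 0.58 ± 0.18 (adjusted p = 0.0325) did not pass P below 0.001. The ketogenic values fell without overlap from WT through CREB3L3-/- and PPARα-/- to PPARα/CREB3L3-/-. The ketogenic differences from WT were -0.84 ± 0.18 (adjusted p = 0.000489), -1.26 ± 0.19 (adjusted p = 2.06e-05) and -1.68 ± 0.18 (adjusted p = 4.78e-08) in that order. Stat2, which codes for another subunit, had group means of 8.45 ± 0.27 in WT, 8.68 ± 0.07 in CREB3L3-/-, 8.61 ± 0.28 in PPARα-/- and 8.94 ± 0.24 in PPARα/CREB3L3-/- fasted livers and 8.63 ± 0.29 in WT, 8.12 ± 0.22 in CREB3L3-/-, 7.83 ± 0.22 in PPARα-/- and 7.47 ± 0.16 in PPARα/CREB3L3-/- ketogenic livers. It was called lower in ketogenic PPARα-/- (-0.80 ± 0.17) and PPARα/CREB3L3-/- (-1.15 ± 0.15), and not in any fasted comparison.

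Sensors of foreign nucleic acids formed the largest role, with 10 members. After fasting 9 of them were higher in the double knockout than in WT (5.81% of all genes). On the ketogenic diet 8 were lower in PPARα-/- (7.15% of all genes) and 8 in PPARα/CREB3L3-/- livers (10.3% of all genes). Oas2 codes for an enzyme that makes oligoadenylates on double-stranded RNA, which activate RNase L. Its fasted level was 5.39, 5.38, 5.14 and 5.52 in WT, 5.73, 5.67, 5.54 and 5.49 in CREB3L3-/-, 6.11, 6.64 and 5.72 in PPARα-/-, and 6.67, 6.46, 6.71 and 6.99 in PPARα/CREB3L3-/- livers. The ketogenic level was 5.54, 6.02, 5.42 and 4.74 in WT, 5.43, 5.95, 5.85 and 5.44 in CREB3L3-/-, 3.97, 3.73 and 3.40 in PPARα-/-, and 4.10, 3.62, 3.52 and 3.60 in PPARα/CREB3L3-/- livers. Every ketogenic liver without PPARα was below every other liver of the series, and the fasted double knockouts were above all WT livers. The differences from WT were 1.35 ± 0.21 (adjusted p = 7.31e-05) for the fasted and -1.72 ± 0.21 (adjusted p = 5.32e-07) for the ketogenic double knockout. Ketogenic CREB3L3-/- livers overlapped WT.

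Zbp1, a sensor of Z-form nucleic acids that can start necroptosis, had a fasted level of 6.17, 6.18, 5.58 and 6.71 in WT, 5.55, 5.52, 5.25 and 5.68 in CREB3L3-/-, 5.98, 7.28 and 6.19 in PPARα-/-, and 7.40, 6.86, 7.14 and 7.81 in PPARα/CREB3L3-/- livers. Its ketogenic level was 7.19, 8.09, 7.09 and 6.54 in WT, 6.02, 6.76, 6.13 and 5.70 in CREB3L3-/-, 4.58, 4.51 and 3.98 in PPARα-/-, and 4.22, 4.51, 4.26 and 4.45 in PPARα/CREB3L3-/- livers. Its fasted CREB3L3-/- values overlapped only the lowest WT liver, and the ketogenic livers without PPARα were below all other livers of both diets. The ketogenic differences from WT were -2.87 ± 0.32 (adjusted p = 1.35e-07) in PPARα-/- and -2.87 ± 0.30 (adjusted p = 2.67e-08) in PPARα/CREB3L3-/-. Among the other sensors, Oasl2 had means of 6.46 ± 0.33 in WT, 6.43 ± 0.22 in CREB3L3-/-, 7.23 ± 0.46 in PPARα-/- and 8.04 ± 0.19 in PPARα/CREB3L3-/- fasted livers and 6.89 ± 0.61 in WT, 7.26 ± 0.41 in CREB3L3-/-, 5.16 ± 0.16 in PPARα-/- and 4.82 ± 0.16 in PPARα/CREB3L3-/- ketogenic livers. For Oas1a the means were 5.24 ± 0.43 in WT, 5.33 ± 0.26 in CREB3L3-/-, 6.31 ± 0.42 in PPARα-/- and 6.50 ± 0.28 in PPARα/CREB3L3-/- fasted livers and 5.56 ± 0.62 in WT, 5.74 ± 0.37 in CREB3L3-/-, 4.44 ± 0.12 in PPARα-/- and 4.3 ± 0.22 in PPARα/CREB3L3-/- ketogenic livers. In both genes ketogenic CREB3L3-/- livers were not called against WT. Ifih1 and Ddx58, which code for the RNA helicases MDA5 and RIG-I, were higher in the fasted double knockout by 1.09 ± 0.16 and 1.16 ± 0.19 and lower in the ketogenic one, at -0.69 ± 0.16 and -0.83 ± 0.19. Eif2ak2, which codes for the kinase PKR that halts translation, was called in the double knockout of both diets (0.86 ± 0.22 and -0.89 ± 0.22), and Oas3 in the fasted double knockout (0.90 ± 0.21) and ketogenic PPARα-/- (-1.07 ± 0.23).

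IFIT proteins bind viral RNA that lacks the host cap methylation. Ifit3 was measured after fasting at 6.34, 7.12, 6.63 and 7.22 in WT, 6.82, 6.70, 6.10 and 7.39 in CREB3L3-/-, 7.21, 8.44 and 7.52 in PPARα-/-, and 9.16, 8.52, 8.61 and 9.71 in PPARα/CREB3L3-/- livers. The ketogenic values were 7.62, 8.24, 7.20 and 6.95 in WT, 6.42, 6.67, 6.38 and 6.21 in CREB3L3-/-, 5.19, 4.60 and 4.47 in PPARα-/-, and 5.02, 4.76, 5.20 and 4.39 in PPARα/CREB3L3-/- livers. Every fasted double knockout was above every other fasted liver, and the ketogenic livers without PPARα were below all remaining ones. Ifit1 and Ifit3 had the widest ranges of group means among the members, 4.73 and 4.25 log2 units. Ifit3 differed from WT by 2.17 ± 0.31 (adjusted p = 2.14e-05) in the fasted and by -2.66 ± 0.31 (adjusted p = 2.25e-07) in the ketogenic double knockout. For Ifit1 the values were 1.80 ± 0.49 (adjusted p = 0.0151), which was not called, and -2.83 ± 0.49 (adjusted p = 7.94e-05). Ifit2 rose in the fasted double knockout by 1.68 ± 0.29 and was not called in any ketogenic comparison with WT.

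The ISG15 system attaches and removes the ubiquitin-like protein ISG15. Isg15 itself was higher in the fasted double knockout (1.35 ± 0.35, adjusted p = 0.0108) and lower in ketogenic PPARα-/- (-2.06 ± 0.38, adjusted p = 0.000226) and PPARα/CREB3L3-/- livers (-2.07 ± 0.35, adjusted p = 5.85e-05). Herc6, the ligase that conjugates it in mice, was called with the same signs, at 1.24 ± 0.22, -1.58 ± 0.24 and -1.63 ± 0.22. Usp18, the protease that removes ISG15 and damps the receptor, was higher in fasted PPARα-/- and double knockouts and was not called in the ketogenic ones. Trim25, which activates RIG-I, was called in no comparison of a knockout with WT. Its estimate was 0.33 ± 0.09 for the fasted and -0.28 ± 0.09 for the ketogenic double knockout.

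Mx proteins, guanylate-binding proteins (GBPs) and immunity-related GTPases disrupt viruses and the vacuoles of intracellular pathogens. Of the 7 members measured, 6 were higher in the fasted double knockout (5.81% of all genes). On the ketogenic diet 5 were lower in PPARα-/- (7.15% of all genes) and 5 in PPARα/CREB3L3-/- livers (10.3% of all genes). Gbp3 was at 6.50, 6.67, 6.11 and 6.63 in WT, 6.16, 5.82, 5.96 and 6.77 in CREB3L3-/-, 6.69, 8.13 and 6.55 in PPARα-/-, and 8.29, 7.69, 8.19 and 8.70 in PPARα/CREB3L3-/- livers after fasting. In ketogenic livers its level was 7.21, 7.99, 7.67 and 6.49 in WT, 6.69, 6.75, 5.96 and 6.14 in CREB3L3-/-, 4.56, 4.28 and 4.57 in PPARα-/-, and 4.61, 4.68, 4.13 and 4.16 in PPARα/CREB3L3-/- livers. The ketogenic livers without PPARα reached at most 4.68 and every other liver was above them, while fasted PPARα-/- replicate 2 lay among the double knockouts. The differences from WT were 1.74 ± 0.31 (adjusted p = 0.000336) in the fasted and -2.94 ± 0.31 (adjusted p = 4.09e-08) in the ketogenic double knockout. Gbp2 had means of 5.32 ± 0.24 in WT, 5.20 ± 0.16 in CREB3L3-/-, 5.81 ± 0.70 in PPARα-/- and 6.83 ± 0.30 in PPARα/CREB3L3-/- fasted livers and 6.24 ± 0.34 in WT, 6.03 ± 0.25 in CREB3L3-/-, 4.57 ± 0.20 in PPARα-/- and 4.29 ± 0.42 in PPARα/CREB3L3-/- ketogenic livers. Gbp7 was called at 1.33 ± 0.28 in the fasted and -2.0 ± 0.28 in the ketogenic double knockout, and Irgm1, which acts in autophagy, at 0.83 ± 0.22 and -1.44 ± 0.22. Mx1 and Mx2 rose in the fasted double knockout, by 1.16 ± 0.25 and 1.96 ± 0.40, and were not called in a ketogenic knockout against WT.

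Iigp1, an immunity-related GTPase, was called lower than WT in each ketogenic knockout. After fasting it was at 10.22, 10.34, 9.91 and 10.44 in WT, 10.52, 10.10, 10.01 and 10.18 in CREB3L3-/-, 9.90, 10.47 and 10.02 in PPARα-/-, and 10.73, 10.53, 10.64 and 10.95 in PPARα/CREB3L3-/- livers. After the ketogenic diet it was 10.56, 10.70, 10.19 and 10.19 in WT, 8.55, 8.74, 9.07 and 8.99 in CREB3L3-/-, 8.08, 7.49 and 7.67 in PPARα-/-, and 8.65, 8.73, 8.70 and 8.97 in PPARα/CREB3L3-/- livers. The 4 fasted double knockouts were above all other fasted livers by a narrow margin, and their difference from WT of 0.49 ± 0.16 (adjusted p = 0.0433) was not called. On the ketogenic diet CREB3L3-/- and PPARα/CREB3L3-/- livers overlapped each other and PPARα-/- livers were below both. It was the member for which ketogenic CREB3L3-/- differed most from WT by p. It was also the only one called higher in the ketogenic double knockout than in PPARα-/-. Znfx1, by its brighter probe set, was likewise about as low in ketogenic CREB3L3-/- livers as in those without PPARα.

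Membrane and nucleotide effectors include IFITM3, which blocks viral fusion in endosomes, tetherin (Bst2), which holds budding virus at the membrane, and viperin (Rsad2) with its neighbour Cmpk2, which together make a chain-terminating nucleotide. Ifitm3 was the member called in most comparisons, 12 of 16, and its livers were tightly grouped. Its level after fasting was 11.76, 11.70, 11.65 and 11.59 in WT, 11.77, 11.62, 11.50 and 11.44 in CREB3L3-/-, 11.92, 12.24 and 11.94 in PPARα-/-, and 12.27, 12.14, 12.29 and 12.26 in PPARα/CREB3L3-/- livers. Ketogenic livers read 12.03, 12.28, 12.13 and 12.04 in WT, 11.46, 11.48, 11.35 and 11.52 in CREB3L3-/-, 10.77, 10.89 and 10.89 in PPARα-/-, and 10.78, 10.84, 10.65 and 10.79 in PPARα/CREB3L3-/- livers. Ketogenic CREB3L3-/- livers lay below all WT livers of that diet and above all ketogenic livers without PPARα, and each ketogenic liver without PPARα was below every fasted liver. The difference from WT was -0.67 ± 0.07 (adjusted p = 3.79e-08) for CREB3L3-/-, -1.27 ± 0.08 (adjusted p = 1.26e-11) for PPARα-/- and -1.35 ± 0.07 (adjusted p = 5e-13) for PPARα/CREB3L3-/-.

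Bst2 was called on the ketogenic diet and not after fasting, where the double knockout differed from WT by 0.12 ± 0.19. Its ketogenic differences from WT were -2.03 ± 0.21 and -2.41 ± 0.19 in ketogenic PPARα-/- and PPARα/CREB3L3-/- livers. Rtp4, a Golgi chaperone with antiviral activity, had means of 6.68 ± 0.25 in WT, 6.91 ± 0.37 in CREB3L3-/-, 7.76 ± 0.54 in PPARα-/- and 8.42 ± 0.51 in PPARα/CREB3L3-/- fasted livers and 7.53 ± 0.87 in WT, 6.87 ± 0.42 in CREB3L3-/-, 4.90 ± 0.19 in PPARα-/- and 4.74 ± 0.51 in PPARα/CREB3L3-/- ketogenic livers. Cmpk2 was higher in the fasted double knockout (1.52 ± 0.29) and lower in the ketogenic one (-1.96 ± 0.29). Rsad2 was called in the fasted double knockout (1.46 ± 0.38) and in no ketogenic comparison with WT.

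**Figure D5:**
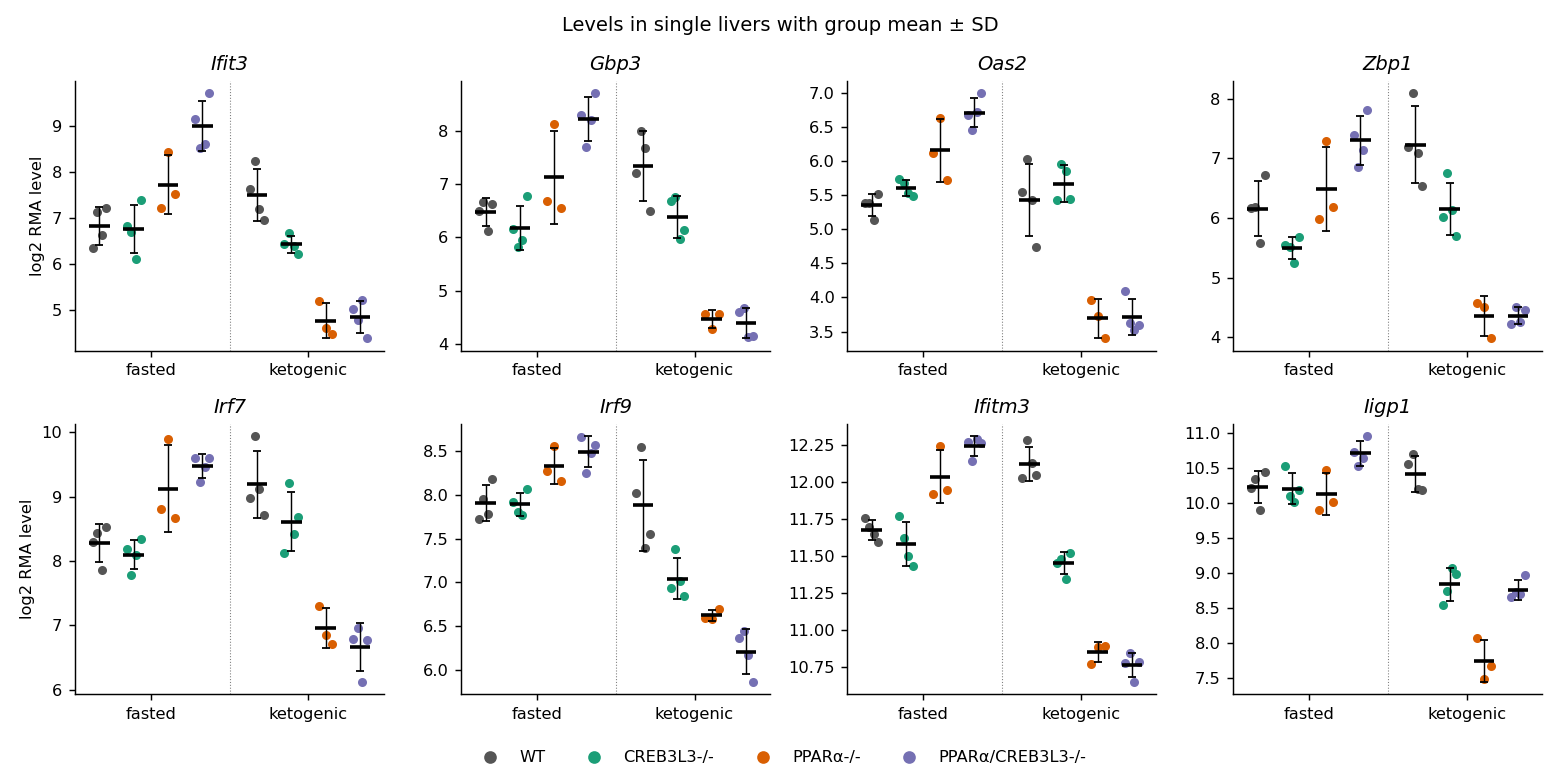
Log2 RMA level of 8 members in each liver (points, coloured by genotype), with the group mean (line) and SD (bars), fasted on the left and ketogenic on the right of each panel. The y axes differ between genes and do not start at 0. For Ifit3, Gbp3, Oas2 and Zbp1 the 7 ketogenic livers without PPARα lie below all others, and for Iigp1 ketogenic CREB3L3-/- livers are low too.

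Of the ADP-ribosylating members, Parp12 and Parp14 were higher in the fasted double knockout, by 0.91 ± 0.15 and 1.12 ± 0.24. Parp14 was lower in both ketogenic groups without PPARα, at -1.35 ± 0.26 and -1.44 ± 0.24, and Parp12 in PPARα-/- (-0.71 ± 0.17). Among the remaining effectors, 5 of 9 were higher in the fasted double knockout (5.81% of all genes). On the ketogenic diet 5 were lower in PPARα-/- (7.15% of all genes) and 7 in PPARα/CREB3L3-/- (10.3% of all genes). Ifi27, a small protein of mitochondrial and nuclear membranes, was called against WT on the ketogenic diet and not after fasting, at -1.0 ± 0.18, -1.39 ± 0.19 and -1.70 ± 0.18 in CREB3L3-/-, PPARα-/- and PPARα/CREB3L3-/-. Xaf1, a pro-apoptotic protein, differed by 1.93 ± 0.32 in the fasted and -2.19 ± 0.32 in the ketogenic double knockout, and Trim30a, a TRIM protein, by 1.40 ± 0.23 and -1.69 ± 0.23. Helz2 (-0.94 ± 0.13), Ifi35 (-1.16 ± 0.22) and Epsti1 (-0.69 ± 0.18) were called lower than WT in the ketogenic double knockout and not in a fasted knockout against WT. Znfx1, a helicase-like sensor at mitochondria, had means of 7.67 ± 0.12 in WT, 7.72 ± 0.04 in CREB3L3-/-, 7.93 ± 0.29 in PPARα-/- and 8.48 ± 0.18 in PPARα/CREB3L3-/- fasted livers and 7.92 ± 0.20 in WT, 7.32 ± 0.16 in CREB3L3-/-, 7.29 ± 0.01 in PPARα-/- and 7.39 ± 0.26 in PPARα/CREB3L3-/- ketogenic livers. A second, dimmer probe set of Znfx1 moved the other way on the ketogenic diet, by 1.41 ± 0.16 in PPARα-/- and 2.01 ± 0.15 in PPARα/CREB3L3-/- livers, and was higher in fasted PPARα-/- (0.69 ± 0.16) and double knockout livers (0.72 ± 0.15). The direction of Znfx1 on the ketogenic diet therefore depends on the probe set.

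Because the signs turned with the diet, the change of each genotype effect between diets was tested. The ketogenic minus the fasted effect of losing PPARα was called lower for 36 of 43 members (2.82% of all genes were called lower), with a median of -2.14. Without ketogenic WT replicate 2 and fasted PPARα-/- replicate 2 it was called lower for 27, with a median of -1.56. The same difference for losing both genes was called lower for 42 members (6.36% of all genes were called lower), with a median of -2.53, and Epsti1 was the member not called. For losing CREB3L3 it was called lower for 3 members (8.3% of all genes were called lower) and higher for 1 (10.6% of all genes were called higher), with a median of -0.39, so these shares were not above those of all genes. The estimate for PPARα-/- was above 0 after fasting and below 0 on the ketogenic diet for 39 of 43 members, and 22 members were called higher in the fasted double knockout and lower in the ketogenic one. The shares of all genes that meet these 2 conditions were not determined. In WT livers the ketogenic diet raised 2 members over fasting, Ifitm3 (0.45 ± 0.07, adjusted p = 0.000484) and Gbp2 (0.92 ± 0.24, adjusted p = 0.016), where 3.6% of all genes were called higher, and the median was 0.39. That median was 0.15 without the same 2 livers. Since fasted and ketogenic livers differ in food intake as well as in diet, these parts cannot be told apart.

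Members with and without the promoter core were set side by side, as a description of the 33 with an entry. The median difference in the fasted double knockout was 1.26 for the 17 with the core and 1.21 for the 16 without. On the ketogenic diet it was -1.35 against -0.84 in PPARα-/- and -1.44 against -0.90 in PPARα/CREB3L3-/- livers. Of those with the core 15 were called lower in each of these ketogenic groups, and of those without it 9 and 10.

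The genes around the members were taken from lists of the interferon system. Of 16 interferon genes 12 were measured, 11 of them with group means below the array median in every group, and 0 were called by limma or by the intensity-based test in any of the 16 comparisons. At an unadjusted p below 0.05 there were 5 in fasted PPARα/CREB3L3-/-, 2 in fasted PPARα-/- and 0 in both ketogenic groups without PPARα, each against WT. The median difference of the 12 was -0.15 and -0.07 in these 2 fasted groups, below 0. Ifnb1 ranged from 2.11 to 2.87 over the 30 livers and Ifng from 2.45 to 3.42. Ifnl2, at 4.56 to 6.16, was above the array median in all 30. Of 9 receptor and kinase genes, Ifnar2, a chain of the type I receptor, was lower in ketogenic CREB3L3-/- (-0.79 ± 0.08), PPARα-/- (-0.65 ± 0.09) and PPARα/CREB3L3-/- (-0.46 ± 0.08), and Ifngr2, of the type II receptor, in the last 2 (-1.03 ± 0.10 and -0.76 ± 0.09). Ifngr2 was also lower in fasted PPARα-/- (-0.59 ± 0.10), while Ifngr1 (1.32 ± 0.14) and Il10rb (1.02 ± 0.13) were higher in ketogenic CREB3L3-/-, Ifnlr1 (0.80 ± 0.16) in ketogenic PPARα/CREB3L3-/-, and Jak1 in fasted PPARα/CREB3L3-/- (0.30 ± 0.06) and ketogenic CREB3L3-/- (0.31 ± 0.06).

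Of 6 STAT and IRF genes measured, 3 were higher in the fasted double knockout, Stat3 (0.48 ± 0.12), Irf1 (0.62 ± 0.16) and Irf5 (0.57 ± 0.15). Irf1, a factor induced by type II interferon, was lower in ketogenic CREB3L3-/- (-0.86 ± 0.16), PPARα-/- (-1.0 ± 0.17) and PPARα/CREB3L3-/- livers (-0.95 ± 0.16), and higher in ketogenic than fasted WT livers (0.71 ± 0.16). Irf2 was lower in the same 3 groups (-0.66 ± 0.11, -0.93 ± 0.12 and -0.74 ± 0.11). Irf8 was lower in the 2 without PPARα (-0.94 ± 0.15 and -0.59 ± 0.14) and Irf3 in the 2 without CREB3L3 (-0.72 ± 0.13 and -0.74 ± 0.13). Ikbke, a kinase that activates IRF3 and IRF7, was higher in fasted PPARα-/- (0.91 ± 0.15) and PPARα/CREB3L3-/- (1.75 ± 0.14), and lower in ketogenic PPARα/CREB3L3-/- (-0.53 ± 0.14). Tlr3, which senses double-stranded RNA in endosomes, was higher in the fasted double knockout (0.71 ± 0.19) and Tlr4 in ketogenic CREB3L3-/- (0.74 ± 0.15), while in ketogenic PPARα/CREB3L3-/- Tlr7, which senses single-stranded RNA, was lower (-1.01 ± 0.23) and Traf6 higher (0.51 ± 0.11). Mavs, the adaptor of RIG-I and MDA5, was lower in both ketogenic groups without CREB3L3 (-1.02 ± 0.12 and -0.93 ± 0.12). Of the 10 brakes, 3 were higher in the fasted double knockout, Ptpn2 (0.88 ± 0.16), Adar (0.77 ± 0.16) and Pias1 (0.36 ± 0.09), and 3 were lower in each ketogenic group without PPARα, Samhd1 (-1.13 ± 0.16 and -1.26 ± 0.15), Ptpn6 (-0.57 ± 0.09 and -0.69 ± 0.09) and Adar (-0.95 ± 0.18 and -0.72 ± 0.16). Of all genes, 5.81% were called higher in the fasted double knockout, and 7.15% and 10.3% lower in ketogenic PPARα-/- and PPARα/CREB3L3-/- livers. Rnaseh2a was higher in ketogenic CREB3L3-/- (0.64 ± 0.15).

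The other interferon-induced genes, are not members. Of 37 measured, 2 were higher in fasted PPARα-/- (3.11% of all genes), a share near the background, and 20 in fasted PPARα/CREB3L3-/- (5.81% of all genes). On the ketogenic diet 21 were lower in PPARα-/- (7.15% of all genes) and 26 in PPARα/CREB3L3-/- (10.3% of all genes). The 2 in fasted PPARα-/- were Daxx (0.69 ± 0.12) and Phf11d (0.90 ± 0.21), and in fasted CREB3L3-/- livers Tor3a (-0.91 ± 0.19) and Isg20 (-0.94 ± 0.21) were lower. In the fasted double knockout the lowest p values were those of Cxcl10 (2.69 ± 0.33), a chemokine for T cells, Phf11d (1.5 ± 0.19), Slfn8 (1.30 ± 0.20) and Sp100 (1.09 ± 0.18). Ketogenic PPARα-/- livers had lower Ly6e (-1.57 ± 0.18), Cxcl9 (-2.98 ± 0.40), Slfn8 (-1.49 ± 0.21) and Ifi205 (-1.92 ± 0.28). In ketogenic PPARα/CREB3L3-/- livers they were Cxcl9 (-3.07 ± 0.37), Ifi205 (-2.03 ± 0.26), Ifi203 (-1.77 ± 0.23) and Slfn5 (-1.40 ± 0.19). In ketogenic CREB3L3-/- livers 6 of the 37 were lower, with Trafd1 (-0.82 ± 0.12) and Trim14 (-0.88 ± 0.15) at the lowest p, and 2 were higher, Mlkl (1.41 ± 0.25) and Ms4a4c (1.42 ± 0.28), where 11.9% of all genes were called lower and 16.7% higher, so neither count is read as a result about the list.

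Markers of liver cell types moved beside these results. The mean log2 level of 6 hepatocyte markers was 12.74 to 12.88 in fasted WT livers and above the array median for every marker in every group. The same markers were lower in 5 of 6 cases in each ketogenic knockout. Of all genes, 11.9% were called lower in ketogenic CREB3L3-/-, 7.15% in PPARα-/- and 10.3% in PPARα/CREB3L3-/- livers. Of 10 Kupffer cell and macrophage markers, 0 were called in the fasted double knockout against WT by limma or the intensity-based test (1 had an unadjusted p below 0.05), and 7 and 5 were lower in ketogenic PPARα-/- and PPARα/CREB3L3-/- livers. The mean of that list ranged over livers from 8.00 to 8.72 in ketogenic WT, 8.90 to 9.04 in CREB3L3-/-, 7.24 to 7.68 in PPARα-/- and 7.24 to 7.77 in PPARα/CREB3L3-/-. Clec4f, found in Kupffer cells, was lower in the last 2, at -1.36 ± 0.19 and -1.57 ± 0.18. Of 7 dendritic cell markers, Siglech (-1.30 ± 0.21 and -1.55 ± 0.19), of plasmacytoid cells, and Ccr9 (-1.11 ± 0.24 and -0.86 ± 0.22) were lower in the same groups. The mean of the dendritic list was 3.63 to 4.00 in ketogenic WT, 3.88 to 4.32 in CREB3L3-/-, 3.27 to 3.51 in PPARα-/- and 3.35 to 3.47 in PPARα/CREB3L3-/-. The array medians were 4.22 to 4.38, and the highest CREB3L3-/- liver lay within that range. Livers of the WT, PPARα-/- and PPARα/CREB3L3-/- groups lay below it. Siglech itself had means of 4.69 in WT, 4.77 in CREB3L3-/-, 3.39 in PPARα-/- and 3.14 in PPARα/CREB3L3-/- ketogenic livers. The part of these markers in the lower ISG levels was not tested.

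Immune and other lists also moved on the ketogenic diet. In CREB3L3-/- livers all 7 recruited monocyte markers were higher than in WT, and the list's mean ranged from 6.81 to 7.89 against 4.79 to 5.87 in WT, 4.79 to 5.16 in PPARα-/- and 5.13 to 5.58 in PPARα/CREB3L3-/-. Stellate cell markers were higher there in 6 of 8 and neutrophil markers in 2 of 7, where 16.7% of all genes were called higher. In both ketogenic groups without PPARα 3 of the 8 stellate cell markers were lower. Of all genes, 7.15% were called lower in PPARα-/- and 10.3% in PPARα/CREB3L3-/- livers of that diet. In ketogenic PPARα-/- livers 2 of 10 T and NK cell markers and 3 of 5 B and plasma cell markers were lower, with T and NK cell list means of 2.82 to 3.05 against 3.26 to 3.74 in WT. Endothelial markers were lower in 2 of 8 in PPARα-/- and in 6 of 8 in PPARα/CREB3L3-/- livers. In the fasted double knockout 1 of 7 monocyte markers was called against WT, Plac8 (1.35 ± 0.21), which was higher. Of 10 T and NK cell markers 1 was higher, Ncr1 (0.60 ± 0.16), of NK cells, and 1 lower, Cd4 (-0.98 ± 0.17). Of all genes, 5.81% were called higher and 3.95% lower there. The monocyte list mean of the double knockout was 5.0 to 5.55 against 4.58 to 4.86 in fasted WT livers, and its T and NK cell list mean 3.21 to 3.40 against 3.47 to 3.62. The part of these lists in the ISG results was not tested.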

How the data were processed

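RNA of 30 livers was hybridised to mouse gene arrays by the authors, who deposited 1 table of log2 expression values made with robust multi-array averaging (RMA), a method that corrects background, quantile-normalises and summarises probes over all arrays. RMA pulls weak differences of dim probe sets towards 0, and levels of different genes cannot be compared. The deposited values were used as given and ranged from 0.698 to 13.7 on the log2 scale, with array medians of 4.22 to 4.38 and correlations within groups of 0.978 to 0.990. Groups were taken from the labels, and no sample column was left out. The files hold no counts, and the number of arrays limits the precision. Probe sets were named with the platform's annotation.

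All 35556 probe sets were fitted as 8 group means with limma 3.58.1 in R 4.3.3, with a variance that follows intensity, giving 22 residual degrees of freedom. A gene was called at P below 0.001 and a fold above 1.2, and p was adjusted by Benjamini-Hochberg. The study's intensity-based moderated test was run as an alternative. Scripts were tested on simulated data. The labels do not say that livers of a group came from separate litters or cages, so p-values rest on the spread between these livers. That spread is pooled over the 8 groups and is not that of the compared groups alone. The median SD of the members was 0.53 in ketogenic WT, 0.25 in fasted WT and 0.21 in ketogenic PPARα-/- livers. Members and lists were chosen with earlier results of these data known. By rule, up to 8 called members of lowest p were named in each direction of a comparison (the 3 of largest size where none was called), and values in every group were given for the 12 members called most often and for Stat2, Irf9 and Irf7. Other named members were chosen after their values were seen.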

Additional observations from a re-analysis of the deposited data

Results flagged for a closer look

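Over 90 groups of 4 livers in which a level was examined for a liver far from the rest, 3 stood out, where chance gives about 1 in 20. In ketogenic CREB3L3-/- livers the median deviation of the members had a gap of 0.875 of the group's range, with replicate 2 high. For Oas1a, fasted WT replicate 3 was low at 4.59 (gap 0.877). For Stat2, ketogenic WT replicate 2 was high at 9.05 (gap 0.838).

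The effect of a genotype differed between the diets by a test of the difference itself, given here as the ketogenic minus the fasted log2 difference from WT. For loss of PPARα it was called for 36 members, and those of lowest p were Ifitm3 (-1.63), Iigp1 (-2.57), Oas2 (-2.53), Ifit3 (-3.64), Irf7 (-3.08), Gbp3 (-3.51), Rtp4 (-3.70) and Zbp1 (-3.20). For loss of both genes it was called for 42 members, among them Ifitm3 (-1.92), Ifit3 (-4.83), Oasl2 (-3.66), Gbp3 (-4.68), Gbp2 (-3.46), Oas2 (-3.07), Irf7 (-3.72) and Iigp1 (-2.13). For loss of CREB3L3 it was called for 4 members, Iigp1 (-1.55), Ifitm3 (-0.58), Ifi27 (-0.96) and Oasl1 (1.37). The ketogenic interaction of both losses was called for 3, Iigp1 (2.59), Ifitm3 (0.58) and Znfx1 (0.69).

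Probe sets that members share with another gene, which are in none of the counts, were called as well. The set of Irgm2 and Igtp was higher in fasted PPARα/CREB3L3-/- livers (1.13) and lower on the ketogenic diet in CREB3L3-/- (-1.27), PPARα-/- (-1.84) and PPARα/CREB3L3-/- livers (-1.81). Both sets of Dtx3l and Parp9 were lower in these 3 ketogenic groups, at -1.20 and -1.43, at -1.31 and -1.11, and at -1.43 and -1.71, and 1 of them was lower in fasted CREB3L3-/- livers (-0.62). The set of Oas1a and Oas1g was higher in fasted PPARα/CREB3L3-/- livers (1.42) and lower in ketogenic PPARα-/- (-1.89) and PPARα/CREB3L3-/- livers (-1.87).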

How the results depend on the processing

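Of the values of single named members under the alternatives, 1749 kept their direction and side of the threshold, 105 lost the call, 5 gained it and 0 reversed. These values cover only the members named in each comparison. With the mean of all probe sets of a symbol, 1 member was called higher in ketogenic PPARα-/- livers (33 lower). The same setting gave 1 higher in ketogenic PPARα/CREB3L3-/- livers (32 lower) and for ketogenic loss of PPARα without CREB3L3 (24 lower). Znfx1 was the only member with a second probe set of its own. Counts of called members moved by over 1.5 times as follows, and the cause was not tested unless fewer livers entered. With the compared groups alone in the fit, the fasted loss of CREB3L3 without PPARα gave 2, the fasted interaction 2 and ketogenic CREB3L3-/- 4. By that fit ketogenic PPARα-/- gave 24 and ketogenic PPARα/CREB3L3-/- 25, against 31 and 32, a move of less than 1.5 times. Adjusted p below 0.05 with no fold limit gave 19 in ketogenic CREB3L3-/-, 8 in the ketogenic interaction, 7 in WT on the ketogenic diet and 10 in the CREB3L3 difference between diets. The fasted interaction gave 1 after a further quantile normalisation. WT on the ketogenic diet gave 7 with array weights and 5 with median centring, and the CREB3L3 difference between diets gave 2 without the variance trend. Median centring moved an array by at most 0.0859.

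The replicate block gave 2 in the fasted interaction and moved no other count by over 1.5 times. Same-numbered livers did not deviate together (mean correlation 0.0107, from -0.111 to 0.121, after fasting and 0.0184, from -0.0823 to 0.113, on the ketogenic diet), so the numbers do not pair the livers.

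Without ketogenic WT replicate 2 and fasted PPARα-/- replicate 2, chosen after seeing the data, the count was 1 in fasted PPARα-/-, 18 for the fasted loss of CREB3L3 without PPARα and 12 for the fasted interaction, and the other counts moved less. With 1 liver left out, the counts for PPARα-/-, CREB3L3-/- and PPARα/CREB3L3-/- against WT ranged over 0 to 6, 0 to 0 and 26 to 32 after fasting, and over 29 to 35, 7 to 13 and 27 to 34 on the ketogenic diet. Loss of CREB3L3 without PPARα gave 0 to 12 fasted and 1 to 1 ketogenic, loss of PPARα without CREB3L3 29 to 33 and 20 to 22, and the interaction 0 to 9 and 2 to 5. WT on the ketogenic diet gave 1 to 4, and the differences between diets 30 to 39 for PPARα, 2 to 5 for CREB3L3 and 41 to 42 for both. In fasted PPARα-/- the count was 2 without WT replicate 3 or PPARα-/- replicate 1. The fasted loss of CREB3L3 without PPARα gave 2, 3 and 1 without PPARα/CREB3L3-/- replicates 1, 3 and 4, and the fasted interaction gave 1 without WT replicate 3 or PPARα/CREB3L3-/- replicate 2. Without ketogenic WT replicate 4, ketogenic CREB3L3-/- gave 13 and the ketogenic interaction 5. The WT diet effect gave 4 without that liver and 1 without ketogenic replicates 1 or 2 or fasted replicates 1 or 3. The CREB3L3 difference gave 2 without fasted WT replicate 3, ketogenic WT replicate 4 or fasted CREB3L3-/- replicate 4, and 5 without ketogenic CREB3L3-/- replicate 2.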
